A study of Mus musculus with 6 samples.

Results

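The genes described here make, sense, move and export cholesterol. They are 32 named members of the sterol pathway, taken by gene symbol from the 15711 genes of the deposited table, and all 32 were listed there. They comprise 18 synthesis enzymes, 5 sensing genes, 3 intracellular transport genes, 3 genes of efflux and esterification and 3 fatty acid enzymes. The study sorted mouse tendon stem/progenitor cells, a cultured fibroblast-like population from tendon, into Col1α1+Vldlr+ and Col1α1+Vldlr- cells to ask what the Vldlr+ cells do in tendon regeneration. Both populations were then kept in DMEM with fetal bovine serum, and each gave 3 RNA libraries. All 6 samples carry a Cre driver and a YFP reporter (genotype label Col1α1-Cre;YFP). The number after Col1α in that label runs from 1 to 6 over the samples, while the sort label reads Col1α1 in all of them. Reporter lines of this kind are meant to mark cells in which the collagen promoter was once active. The labels do not give age, sex or the number of animals, nor whether the 3 libraries of a group came from separate cultures, and p-values therefore reflect spread among libraries that may be technical replicates.

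Animal cells build cholesterol from acetyl-CoA. The mevalonate arm makes isoprenoid units, farnesyl units are joined to squalene, squalene is closed to lanosterol, and lanosterol is trimmed and rearranged to cholesterol. When sterol in the endoplasmic reticulum is low, Scap escorts the membrane-bound transcription factors SREBP-1 and SREBP-2 (genes Srebf1 and Srebf2) to the Golgi, where they are cut and freed to switch on most genes of the pathway. Insig proteins hold Scap back when sterol is plentiful. Excess cholesterol is esterified by Soat1 or exported by Abca1 and Abcg1, whose genes are targets of the oxysterol-sensing LXR receptors.

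Each library held between 17280540 and 17719560 reads, as worked out from the deposited values. Labelled-positive replicate 1 stood apart from replicates 2 and 3 of its group, with a chi-square per gene of 13.8 and 11.9 against 2.27 between those 2 libraries. The sorted gene itself did not check the labels. Vldlr was listed at 0.961, 0.959 and 0.467 RPKM (reads per kilobase of exon, relative to the library's size) in the labelled-negative libraries and at 4.73, 3.97 and 3.70 RPKM in the labelled-positive ones. The 3 labelled-negative values were no whole number of reads, unlike those of all other 15690 genes with an exon length, and became whole (within 0.01 reads) after an addition of 5 RPKM. With the addition the labelled-negative mean was 5.80 RPKM, above the labelled-positive mean of 4.13 RPKM, so groups are named as labelled. Of 12 tendon and fibroblast markers, all tested, the labelled-positive cells had 10 higher and 2 lower, beside 29.7% and 26.1% of all tested genes. The lower ones were Tnmd, 3.95-fold (mean 6.88 against 27.2 RPKM), and Pdgfra, 1.56-fold. Over the 12, labelled-negative sums were 4259 to 4402 RPKM and labelled-positive sums 12251 to 13209 RPKM. The rises were uneven. Mean levels of Fmod, Comp and Thbs4 went from 288, 335 and 2.23 RPKM to 3152, 2615 and 1011 RPKM. Scx, Dcn and Lum were 1.24-, 1.24- and 1.25-fold higher.

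Sterol synthesis genes were lower in the labelled-positive cells along most of the pathway. Of the 30 members that passed the low-value filter (at least 1 RPKM in 3 libraries), 18 were lower, 4 were higher and 8 did not pass limma's test at an adjusted p under 0.05. Over all 12116 genes tested, 26.1% were lower and 29.7% higher. Among the enzymes 13 of 17 tested were lower and 0 were higher, with a median log2 fold change of -0.64 against 0.02 over all tested genes. The median over the 30 tested members was -0.37. The values of the 2 groups did not overlap for 19 members that were lower and 4 that were higher in the labelled-positive libraries, where 29.5% and 33.5% of all tested genes were so divided. Against a 1.5-fold change, 6 members were lower (Hmgcs1, Mvd, Sqle, Hsd17b7, Insig1 and Abca1) and 0 were higher, beside 5.00% and 4.43% of all tested genes. Summed over the 18 enzymes, the level was 211, 206 and 217 RPKM in the labelled-negative and 133, 140 and 138 RPKM in the labelled-positive group, a 1.54-fold difference of the means. With reads scaled by library total alone, 22 members were lower and 0 higher, beside 45.6% and 15.4% of all tested genes. With limma voom on the worked-out reads the counts were 18 and 4, beside 27.0% and 29.6%, and without the low-value filter 19 and 4 of 32, beside 26.5% and 25.7%. In bulk RNA, fewer cells of a type and less RNA per cell cannot be told apart.

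**Figure D1:**
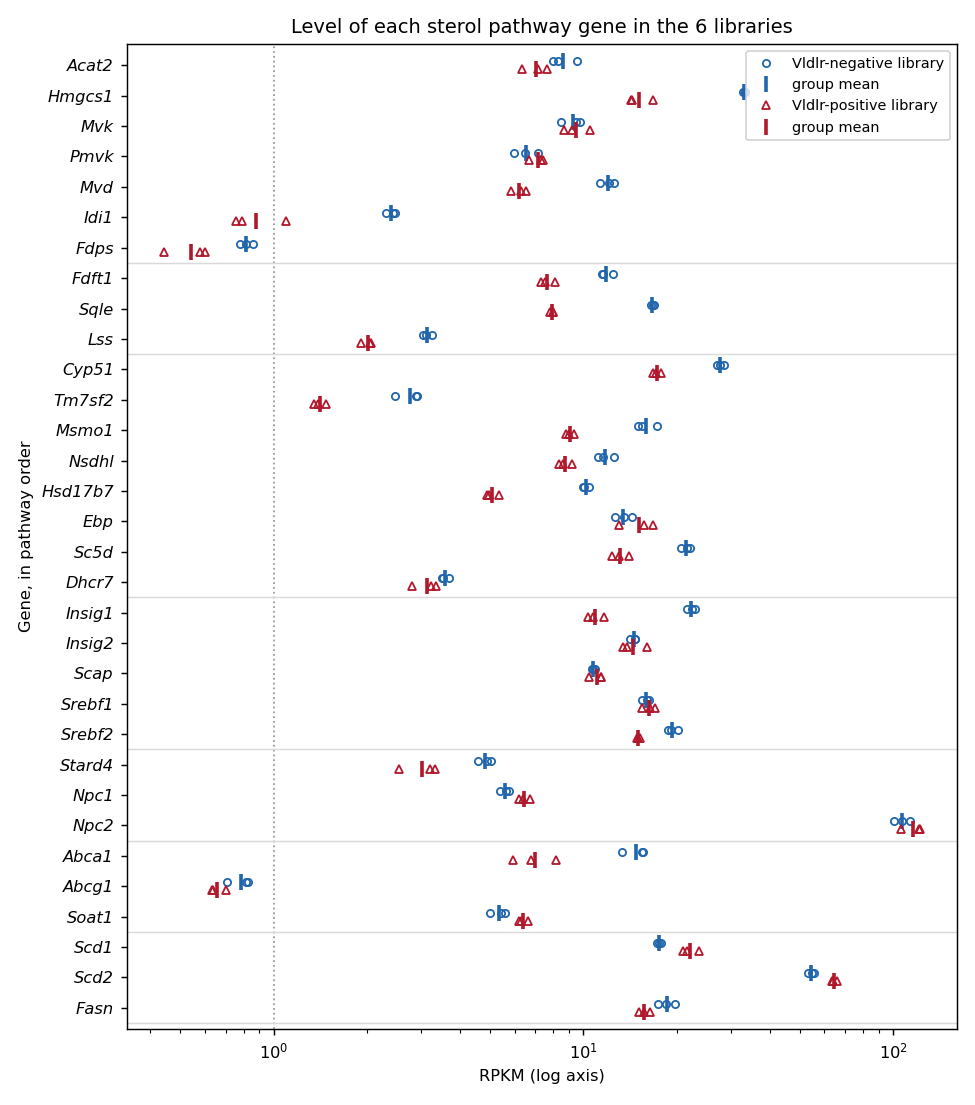
Level of the 32 genes in RPKM on a log axis, in pathway order from the first synthesis step at the top. Circles are the 3 labelled-negative libraries, triangles the 3 labelled-positive libraries, upright bars the group means, and the dotted line is 1 RPKM. Hmgcs1, Sqle and Insig1 show separate clusters, while the points of Scap and Srebf1 are mixed.

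Stretches upstream of Hmgcs1, Insig1, Hsd17b7 and Mvd, all past the 1.5-fold test, are shown because the sterol-responsive promoters of this pathway are known for pairing an SREBP element with a CCAAT box, the site of the factor NF-Y. Promoter windows of 250 bases before the annotated start were available from RefSeq (GRCm38.p6) for 24 of the 32 members. The others are Fdps, Fdft1, Sqle, Stard4, Npc1, Abcg1, Scd1 and Scd2. Capitals mark the element TCACNCCAC or its reverse complement GTGGNGTGA, and CCAAT or its reverse complement ATTGG. Each run reads 5′ to 3′ along the gene's strand and ends before the GENCODE gene boundary.
Hmgcs1, chr13:119690101-119690325, plus strand: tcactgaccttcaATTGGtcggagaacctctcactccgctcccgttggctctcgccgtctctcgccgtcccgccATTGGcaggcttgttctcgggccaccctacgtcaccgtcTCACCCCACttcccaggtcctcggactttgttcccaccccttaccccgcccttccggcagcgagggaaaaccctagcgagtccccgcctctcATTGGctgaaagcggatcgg
Insig1, chr5:28071181-28071215, plus strand: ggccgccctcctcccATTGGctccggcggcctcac
Hsd17b7, chr1:169969259-169969385, minus strand: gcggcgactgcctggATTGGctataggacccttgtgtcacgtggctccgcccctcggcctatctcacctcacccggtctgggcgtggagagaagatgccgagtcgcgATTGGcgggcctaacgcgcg
Mvd, chr8:122443430-122443497, minus strand: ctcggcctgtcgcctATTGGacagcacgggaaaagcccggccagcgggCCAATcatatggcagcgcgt
Only the window of Hmgcs1 held TCACNCCAC, as TCACCCCAC, 1 of the 24 members with a window (4.17%), against 1.28% of the 8981 tested genes with a window and 1.05% of all 32851 windows. CCAAT was found for 21 of the 24 members (87.5%), against 40.4% of the tested genes with a window and 33.8% of all windows. By call, 13 of 15 members called lower and 8 of the other 9 held it. Acat2, Scap and Abca1 did not. A match of letters is a description of these windows and not a binding site.

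In the mevalonate arm, the synthase gene Hmgcs1 (chromosome 13, 119690379 to 119708260), which makes HMG-CoA, had the largest fall on the log2(RPKM + 1) scale of the 30 tested members. Its level was 33.3, 33.4 and 32.8 RPKM in the labelled-negative group and 16.8, 14.4 and 14.3 RPKM in the labelled-positive ones. All 3 labelled-positive libraries were below the others, by 2.18-fold in the mean (log2 fold change -1.08, SE 0.07, limma adjusted p = 3.7e-06). Only 3.52% of all tested genes had a lower log2 fold change. Mvd (chromosome 8, 122433601 to 122443422), the decarboxylase that makes isopentenyl diphosphate, was at 12.6, 11.4 and 12.1 RPKM against 5.85, 6.51 and 6.29 RPKM, 1.93-fold lower without overlap (log2 fold change -0.85, SE 0.06, limma adjusted p = 8.9e-06). The isomerase gene Idi1 was at 2.44, 2.47 and 2.30 RPKM against 1.09, 0.756 and 0.791 RPKM, 2.73-fold lower in the ratio of means, the largest such ratio of the tested members. It was called lower (log2 fold change -0.86, SE 0.08, limma adjusted p = 4.7e-05), and its log2 fold change was -1.37 when 0.1 in place of 1 was added to the RPKM and -1.46 in the voom fit of worked-out reads. It passed the filter through its labelled-negative libraries and had 44 to 63 reads in the labelled-positive ones.

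The 2 kinases between these steps did not pass the test. Mevalonate kinase (Mvk) was at 8.47 to 9.75 RPKM in the labelled-negative and 8.66 to 10.5 RPKM in the labelled-positive libraries, with a log2 difference of 0.03 (95% confidence interval -0.16 to 0.21). Phosphomevalonate kinase (Pmvk) was at 5.99 to 7.11 against 6.67 to 7.42 RPKM, with a log2 difference of 0.11 (-0.05 to 0.28). Both pairs of groups overlapped, and both signs turned negative with total-read scaling. Acat2, the cytosolic thiolase that joins acetyl-CoA units, was at 7.998 to 9.54 against 6.36 to 7.65 RPKM (log2 fold change -0.26, limma adjusted p = 0.031; -0.43 with total-read scaling). It missed the threshold without labelled-negative replicate 2 or 3 or labelled-positive replicate 1 or 3, with an adjusted p between 0.0026 and 0.0995 over the alternatives. Fdps, which makes farnesyl diphosphate, stayed under the filter with 0.855, 0.817 and 0.778 RPKM against 0.578, 0.444 and 0.601 RPKM, from 61 to 67 and 31 to 42 reads.

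Some members resemble other genes closely. Transcripts of 6 other genes matched 91.4% of the longest coding transcript of Fdps at 95% identity or more, in stretches of at least 100 bases, and transcripts of 3 other genes matched 33.3% of that of Idi1. For Acat2 the share was 65.6%, the longest match being 1477 bases of Acat3, and for Fdft1 it was 54.7%. How reads that fit several genes were counted is not given in the sources used here, so the levels of these 4 genes are uncertain. Without them, 10 of 14 tested enzymes and 15 of 27 tested members were lower, beside 26.1% of all tested genes. That comparison was added after the data were seen. The antisense gene Gm48342 overlaps 16.2% of the Hmgcs1 transcript, and use of strand is likewise not given.

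All 3 genes from farnesyl diphosphate to lanosterol were lower in the labelled-positive cells. Squalene epoxidase (Sqle; chromosome 15, 59315077 to 59331192), a rate-setting oxygenase, was at 16.9, 16.7 and 16.6 RPKM in the labelled-negative and 7.79, 7.996 and 7.97 RPKM in the labelled-positive libraries. The libraries of each group lay close together without overlap, and the fold was 2.11 (log2 fold change -0.99, SE 0.05, limma adjusted p = 7.1e-07). Squalene synthase (Fdft1) was at 11.5 to 12.4 against 7.33 to 8.10 RPKM, 1.55-fold lower (log2 fold change -0.57, SE 0.06, limma adjusted p = 8.2e-05). Lanosterol synthase (Lss), which closes the sterol rings, was at 3.04 to 3.25 against 1.92 to 2.07 RPKM, 1.56-fold lower (log2 fold change -0.46, SE 0.06, limma adjusted p = 3.3e-04). Its exon length of 10787 bases joins the exons of all its transcripts, against 4667 bases for the longest coding one, which lowers its RPKM beside other genes.

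From lanosterol to cholesterol, 6 of 8 enzymes were lower and 2, Ebp and Dhcr7, did not pass. The ketosteroid reductase gene Hsd17b7 (chromosome 1, 169949535 to 169969241) was at 10.4, 10.01 and 10.1 RPKM against 4.88, 4.95 and 5.34 RPKM, 2.01-fold lower (log2 fold change -0.88, SE 0.06, limma adjusted p = 3.5e-06). Msmo1, the methylsterol oxidase, was at 15.5, 15.04 and 17.2 RPKM against 8.78, 8.99 and 9.32 RPKM, 1.76-fold lower (log2 fold change -0.75, SE 0.06, limma adjusted p = 2.1e-05). The lanosterol demethylase gene Cyp51 was at 27.0, 27.7 and 28.4 RPKM against 16.7, 17.2 and 17.9 RPKM, 1.604-fold lower (log2 fold change -0.65, SE 0.05, limma adjusted p = 1.3e-05). For these genes each labelled-positive library lay under every labelled-negative one. The desaturase gene Sc5d was 1.63-fold, the sterol reductase gene Tm7sf2 1.95-fold and the dehydrogenase gene Nsdhl 1.35-fold lower, with log2 fold changes of -0.67, -0.64 and -0.40. That of Tm7sf2 was -0.96 with limma voom.

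Ebp, the isomerase that moves the ring double bond, was at 12.6 to 14.3 RPKM in the labelled-negative and 13.1 to 16.8 RPKM in the labelled-positive libraries (log2 difference 0.15, 95% confidence interval -0.06 to 0.37). Without labelled-positive replicate 1 it was called higher, with a log2 fold change of 0.25 (limma adjusted p = 0.0072), and over the alternatives its adjusted p lay between 0.0072 and 0.767. Its sign turned negative, at -0.03, with total-read scaling. Dhcr7, the reductase that completes cholesterol, was at 3.49 to 3.69 against 2.80 to 3.36 RPKM. Its groups did not overlap, but it missed the threshold (log2 difference -0.15, -0.31 to 0.01, limma adjusted p = 0.10). With total-read scaling it was called lower (adjusted p = 0.0057).

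**Figure D2:**
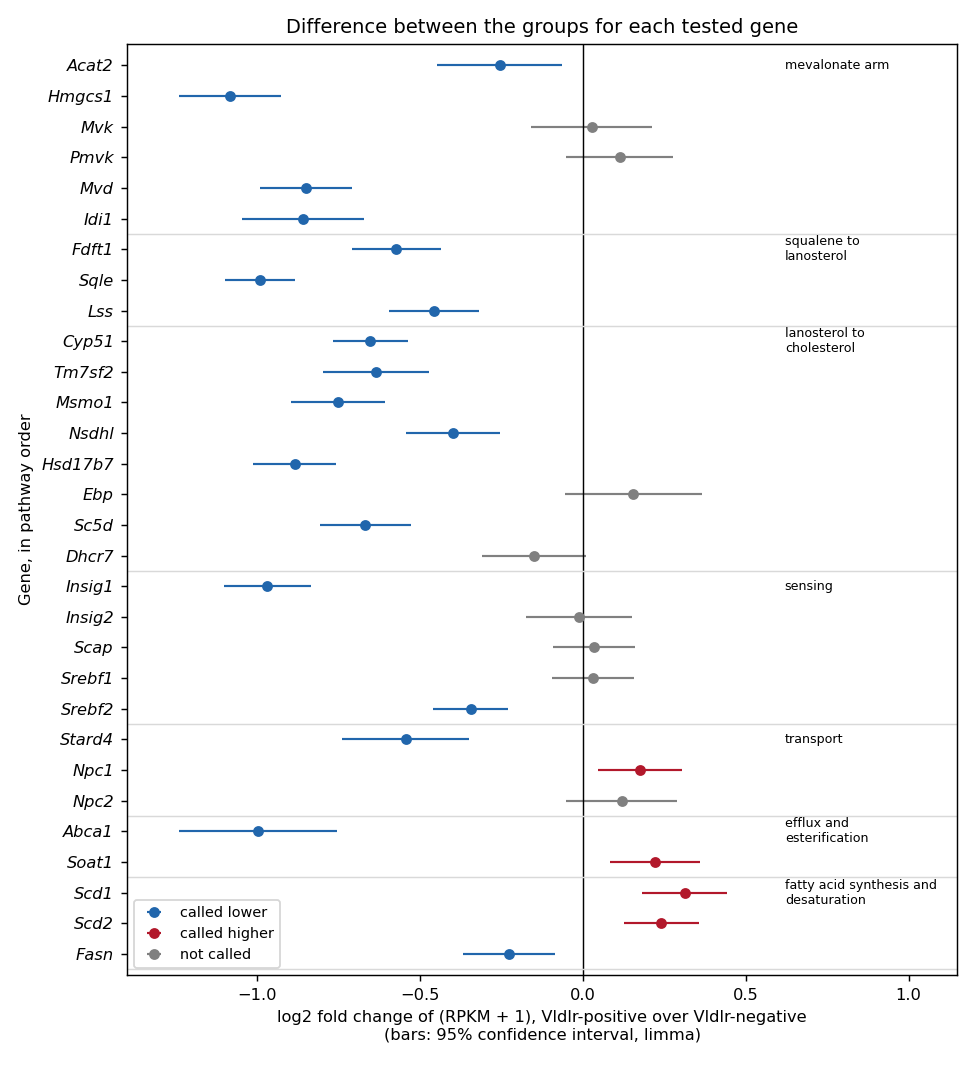
Log2 fold change of (RPKM + 1), labelled-positive over labelled-negative, for the 30 tested genes in pathway order, with 95% confidence intervals from limma. Blue genes were called lower, red ones higher and grey ones neither. Most enzyme intervals lie left of 0, from -1.08 for Hmgcs1 to -0.26 for Acat2 among those called, and the 4 red genes lie between 0.17 and 0.31.

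Of the sensing genes, Insig1 and Srebf2 were lower, and Insig2, Scap and Srebf1 did not pass. Insig1 (chromosome 5, 28071363 to 28078662), itself an SREBP target that retains Scap, was at 22.9, 21.6 and 22.4 RPKM in the labelled-negative and 11.6, 10.8 and 10.3 RPKM in the labelled-positive ones. The groups did not overlap and the mean was 2.04-fold lower (log2 fold change -0.97, SE 0.06, limma adjusted p = 2.7e-06). Srebf2 (chromosome 15, 82147181 to 82205379), the factor best known for sterol genes, was at 18.8, 20.2 and 19.1 RPKM against 14.9, 15.05 and 15.2 RPKM. Its fall was smaller, 1.29-fold (log2 fold change -0.34, SE 0.05, limma adjusted p = 6.2e-04; -0.54 with total-read scaling), and its labelled-positive libraries were nearly equal.

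Insig2, which also retains Scap, was at 14.2 to 14.7 against 13.4 to 16.1 RPKM (log2 difference -0.01, 95% confidence interval -0.18 to 0.15). Scap was at 10.7 to 10.9 against 10.4 to 11.4 RPKM (0.03, -0.09 to 0.16). Srebf1, the factor better known for fatty acid genes, was at 15.4 to 16.3 against 15.5 to 17.0 RPKM (0.03, -0.09 to 0.16). The groups of all 3 genes overlapped, and these intervals exclude a change of the size seen for Insig1. With total-read scaling, which moved the median of all genes by -0.17, the log2 fold changes of Insig2, Scap and Srebf1 were -0.20, -0.15 and -0.16 and all 3 were called lower.

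Ratios of 2 genes within a library do not depend on the scaling between libraries, and 4 were computed. The ratio of Insig1 to Insig2 was 1.56, 1.46 and 1.58 in the labelled-negative and 0.723, 0.775 and 0.772 in the labelled-positive libraries, so that the more abundant of the pair per length changed from Insig1 to Insig2. Srebf2 to Srebf1 went from 1.151, 1.26 and 1.24 to 0.959, 0.884 and 0.923. The export pair Abca1 to Abcg1 went from 19.0, 22.0 and 16.2 to 12.9, 8.48 and 10.6, with few Abcg1 reads. The desaturase pair Scd1 to Scd2 went from 0.323 ± 0.0018 to 0.342 ± 0.0132 (SD, n = 3). In all 4 the groups did not overlap, and each gave an exact two-sided permutation p of 0.1, also after Benjamini-Hochberg adjustment over the 4, which is the smallest that 3 against 3 allows.

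**Figure D3:**
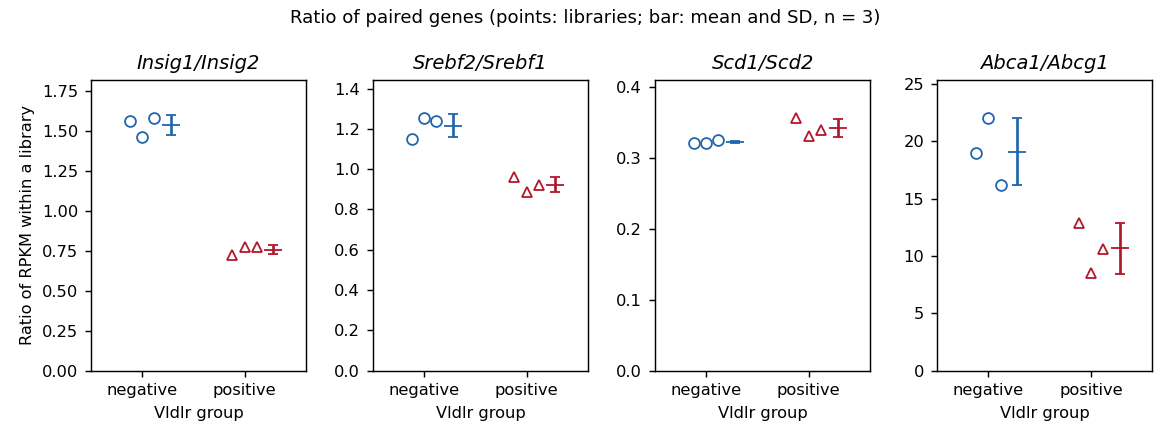
Ratio of the RPKM of paired genes within each library, for Insig1/Insig2, Srebf2/Srebf1, Scd1/Scd2 and Abca1/Abcg1. Points are libraries, bars are the mean and SD of 3 libraries, and each axis starts at 0. The Insig ratio is above 1 in the labelled-negative and below 1 in the labelled-positive libraries.

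Transport, efflux and storage genes did not share a direction. Stard4, a soluble sterol carrier and SREBP target, was at 5.05, 4.56 and 4.89 RPKM against 3.31, 2.55 and 3.19 RPKM, 1.602-fold lower (log2 fold change -0.54, SE 0.08, limma adjusted p = 9.1e-04). The lysosomal exporter gene Npc1 was at 5.38, 5.74 and 5.65 RPKM against 6.73, 6.21 and 6.38 RPKM, with each labelled-positive library above (log2 fold change 0.17 with SE 0.06, limma adjusted p = 0.029). That call was lost in 7 of 14 alternatives, among them total-read scaling (log2 fold change 0.0014) and the replicate block (adjusted p = 0.052). The call on Npc1 was also lost when any labelled-negative library or labelled-positive replicate 3 was left out. Npc2, its soluble partner, had the highest level per length of the members at 101 to 113 against 106 to 122 RPKM, with overlapping groups (log2 difference 0.12, 95% confidence interval -0.05 to 0.29). It was called higher without labelled-positive replicate 1 (adjusted p = 0.024), and its sign turned negative with total-read scaling.

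Abca1 (chromosome 4, 53030787 to 53159895), which loads cholesterol onto lipid-poor apolipoproteins, was the 1 efflux or esterification gene past the 1.5-fold test. Its level was 15.5, 15.6 and 13.3 RPKM in the labelled-negative and 8.15, 5.95 and 6.77 RPKM in the labelled-positive ones. The groups did not overlap and the mean was 2.13-fold lower (log2 fold change -0.996, SE 0.11, limma adjusted p = 9.1e-05). Abca1 no longer passed the 1.5-fold test without labelled-negative replicate 1 or 2, or without labelled-positive replicate 2 or 3. Abcg1, which exports to high-density lipoprotein, stayed under the filter at 0.707 to 0.824 against 0.633 to 0.702 RPKM. It did not pass when the filter was removed (log2 difference -0.10, 95% confidence interval -0.24 to 0.03, limma adjusted p = 0.152). Soat1, which esterifies cholesterol for storage, was at 4.98, 5.59 and 5.42 RPKM against 6.65, 6.28 and 6.21 RPKM, higher by a factor of 1.197 (log2 fold change 0.22 with SE 0.06, limma adjusted p = 0.015). The call on Soat1 was lost without labelled-negative replicate 1 (adjusted p = 0.067) and with total-read scaling (adjusted p = 0.498).

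Macrophages express Abca1, Abcg1 and Npc2, of which only Abca1 was called lower here. Macrophage markers differed between the groups. The marker counts below stand beside 26.1% lower and 29.7% higher over all tested genes. All 13 tested macrophage markers of 18 listed were lower in the labelled-positive libraries, where Tyrobp had 0 reads. The summed level of the 15 present in the deposited table was 29.4 to 37.6 RPKM there against 597 to 722 RPKM. Lyz2 made up most of both sums (24.1 to 30.3 against 395 to 471 RPKM). All 5 tested adipocyte markers of 8 listed were lower too, with sums of 4.87 to 6.30 against 38.3 to 43.8 RPKM. Schwann cell markers were mostly higher, 7 of 8 tested, as were endothelial ones, 6 of 7 tested, with Cdh5 and Tie1 at 0 in the labelled-negative libraries. Summed over all 10 listed Schwann markers, the level was 129 to 141 against 21.1 to 22.9 RPKM. Over all 9 listed endothelial markers it was 17.4 to 19.1 against 3.97 to 4.77 RPKM. The exceptions, S100b (mean 4.50 against 15.4 RPKM) and Tek (0.496 against 3.52 RPKM), made up most of the labelled-negative sums. Mitochondrial genes took 2.58% to 2.92% of reads in the labelled-negative and 1.59% to 1.95% in the labelled-positive libraries. The part of these differences in the levels of sterol genes was not tested.

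The fatty acid members moved in both directions. Scd1 (chromosome 19, 44394455 to 44407879), which makes oleate, was at 17.8, 17.6 and 17.3 RPKM in the labelled-negative and 23.6, 21.01 and 21.7 RPKM in the labelled-positive ones. All labelled-positive libraries were above, 1.26-fold in the mean (log2 fold change 0.31, SE 0.06, limma adjusted p = 0.0020). Its neighbour Scd2 was at 55.5, 54.7 and 53.2 RPKM against 66.1, 63.5 and 64.0 RPKM, higher by a factor of 1.19 (log2 fold change 0.24 with SE 0.05, limma adjusted p = 0.0041). Transcripts of Scd1 matched 11.4% of that of Scd2, so reads could be split between them. Both calls were lost with total-read scaling (log2 fold changes 0.12 and 0.04). Fasn, the fatty acid synthase, was at 18.6, 19.8 and 17.5 RPKM against 15.7, 15.1 and 16.4 RPKM, 1.18-fold lower (log2 fold change -0.23, SE 0.06, limma adjusted p = 0.014; -0.42 with total-read scaling). Its call was lost without labelled-negative replicate 2 (adjusted p = 0.056) or labelled-positive replicate 2 (adjusted p = 0.052).

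**Figure D4:**
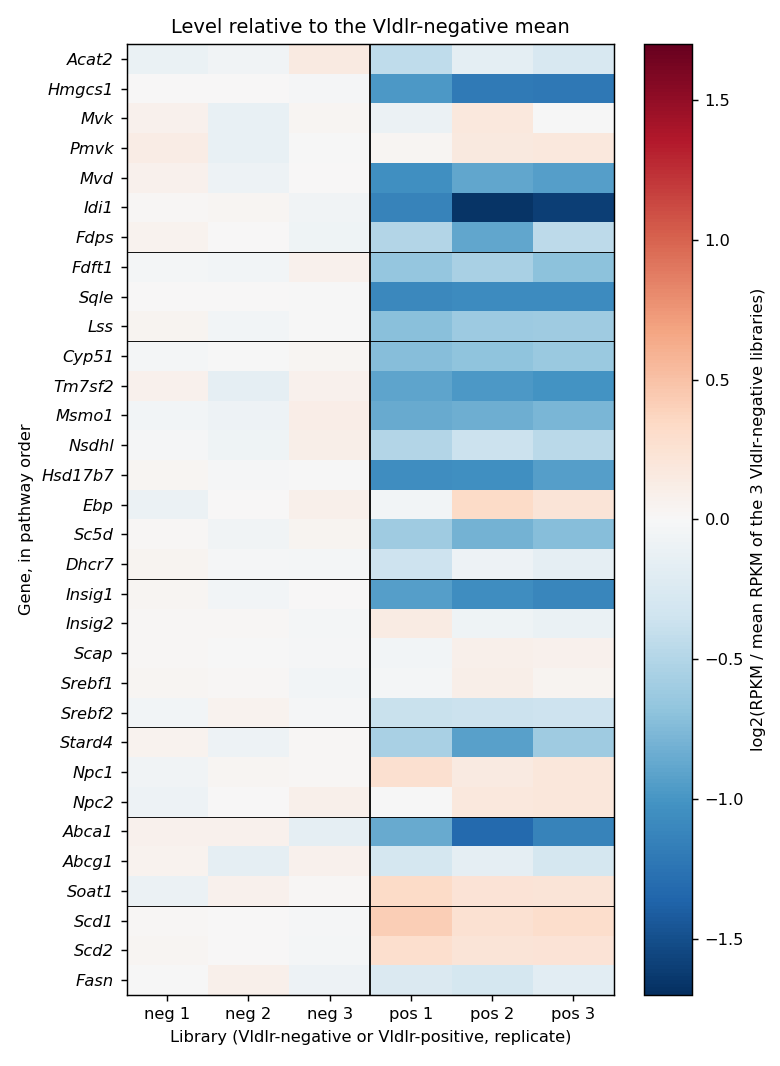
Log2 ratio of each library's RPKM to the mean of the 3 labelled-negative libraries, with 32 genes in pathway order and the 6 libraries in columns. Blue is lower and red higher. Most enzymes, Insig1, Stard4 and Abca1 are blue in all 3 labelled-positive columns, and Soat1, Scd1 and Scd2 are pale red.

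Labelled-positive replicate 1, which stood apart over all genes, did not lie on 1 side of its group here. It was above replicates 2 and 3 for 12 members, below both for 17 and between them for 3. It was nearer the labelled-negative level for Idi1 (1.09 against 0.756 and 0.791 RPKM), Abca1 and Hmgcs1. It was below both for Ebp (13.1 against 15.6 and 16.8 RPKM), Dhcr7 and Acat2. Without it, 17 members were lower and 6 higher, beside 31.0% and 33.9% of all tested genes.

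Other genes of the pathway were read from 5 lists, whose counts stand against 26.1% lower and 29.7% higher over all tested genes. Among 24 other SREBP genes of the fatty acid arm and of SREBP processing and turnover, 11 were lower and 3 higher. Elovl6, which lengthens palmitate, was at 8.43, 8.80 and 7.77 RPKM against 4.23, 2.98 and 3.16 RPKM, 2.41-fold lower (log2 fold change -1.08, SE 0.10, limma adjusted p = 5.4e-05). The desaturase gene Fads2 was 1.74-fold and the acetyl-CoA synthetase gene Acss2 1.81-fold lower, while Fads3 was 1.63-fold higher, at 62.2 ± 3.26 RPKM in the labelled-positive against 38.2 ± 1.16 RPKM in the labelled-negative libraries (SD, n = 3).

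The LXR list held 11 tested genes, of which 5 were lower and 2 higher, beside 26.1% and 29.7% of all tested genes. Apoe, a lipoprotein component that macrophages make in quantity, was at 131, 134 and 139 RPKM against 24.1, 30.4 and 28.4 RPKM, 4.89-fold lower (log2 fold change -2.25, SE 0.08, limma adjusted p = 1.9e-07). Mylip, the ubiquitin ligase that removes lipoprotein receptors, was 2.10-fold, the LXR target gene Smpdl3a 1.36-fold and the transporter gene Abca7 1.35-fold lower. The 2 higher genes were the LXR receptor gene Nr1h3 (log2 fold change 0.32, limma adjusted p = 0.023) and Arl4c (0.24, limma adjusted p = 0.015).

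In the non-sterol isoprenoid branch, which draws on the same farnesyl units, 7 of 13 tested genes were higher and 1 lower, beside 29.7% and 26.1% of all tested genes. The 7 included Rce1 (log2 fold change 0.39), which trims prenylated proteins, the farnesyltransferase subunit gene Fntb (0.34) and Coq2 (0.22) of ubiquinone synthesis. The 1 that fell was Pggt1b, which encodes a subunit of another protein prenyltransferase, at 5.62, 5.46 and 4.87 RPKM against 4.35, 2.85 and 2.73 RPKM. Among 19 tested genes of other sterol transport and hydrolysis, 6 were lower and 5 higher, both near the 26.1% and 29.7% of all tested genes. The sterol carrier gene Stard5 was 2.09-fold higher, at 8.17 ± 0.176 RPKM in the labelled-positive against 3.91 ± 0.234 RPKM in the labelled-negative libraries, and Lima1 1.35-fold higher. The oxysterol-binding Osbpl1a was 1.79-fold lower, and Lipa, the lysosomal lipase that frees cholesterol from its esters, 1.54-fold lower, at 17.2 ± 0.530 RPKM in the labelled-positive against 26.5 ± 0.294 RPKM in the labelled-negative libraries (SD, n = 3).

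Of 4 tested sterol hydroxylase genes 2 were lower and 1 higher, too few to set against the 26.1% and 29.7% of all tested genes. Ch25h, which makes an oxysterol that blocks SREBP processing, was at 2.21, 2.40 and 2.67 RPKM against 1.31, 0.738 and 1.04 RPKM (log2 fold change -0.76, SE 0.11, limma adjusted p = 5.6e-04). Cyp7b1, which clears oxysterols, was at 6.07, 7.66 and 6.05 RPKM against 4.24, 3.84 and 4.81 RPKM, 1.53-fold lower. Cyp39a1, another oxysterol hydroxylase, was at 3.99, 4.01 and 3.99 RPKM against 9.52, 8.23 and 8.98 RPKM, 2.23-fold higher. Over the 5 lists 25 of 71 tested genes were lower and 18 higher, the latter near the 29.7% of all tested genes. With total-read scaling 40 of 72 were lower and 5 higher, where all tested genes moved to 45.6% and 15.4%. Without labelled-negative replicate 2, 9 were higher (24.4% of all tested genes), and without labelled-negative replicate 1, 10 were (23.4%). Without labelled-positive replicate 2 or 3, 11 were higher (24.9% and 24.0%).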

How the data were processed

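RNA of 6 libraries was analysed, 3 per sort label. The deposited table gives RPKM per gene; its values identified the unit. The submitters' processing notes list the build mm10 and, without roles, bcl2fastq 1.8.4 and Cell Ranger. Aligner, counting program, multi-mapping and strand settings: not given in the sources used here. RPKM times merged exon length (GENCODE M21, GRCm38) gave whole reads within 0.01 for 15690 of 15691 genes. 20 genes had no length. Deposited library sizes carry composition factors of 0.928 to 1.07. Intervals cover the spread between these libraries.

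Genes reaching 1 RPKM in 3 or more libraries were tested with limma 3.58.1 (R 4.3.3, trend and robust) on log2(RPKM + 1), which understates changes of low genes, with Benjamini-Hochberg adjustment over all 12116. Folds are ratios of mean RPKM. The script was tested on simulated data: 190 of 191 genes changed 2-fold were recovered, and 25 of 11867 unchanged genes were called. The simulation had fewer changed genes than were called here and no library set apart, so it checks the script and not the calls. Copies were sought with blastn 2.17.0. Other scalings, pseudocounts, filters, limma voom, the replicate block and left-out libraries were tried. All 32 members are described. From each related list up to 4 called genes of lowest adjusted p are named, and the 2 higher genes of the LXR list were added. Members, lists and ratios were chosen with earlier results of these data known. RPKM between genes depends on the merged exon length.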

Additional observations from a re-analysis of the deposited data

How the results depend on the processing

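Against 18 members called lower in the main comparison, 16 to 18 were lower when 1 library was left out and 22 with total-read scaling. Among the enzymes, 12 or 13 were lower when 1 library was left out. Over all 12116 tested genes, leaving out 1 library gave 2415 to 3754 lower and 2830 to 4103 higher. With total-read scaling 0 members were higher, and all 5 sensing genes, 2 transport, efflux and storage genes and 1 fatty acid member were called. With that scaling 10 members passed the 1.5-fold test, beside 804 lower and 398 higher of all 12139 tested genes. In the main comparison 606 of all 12116 tested genes were lower by that test and 537 higher. The members' median log2 fold change with total-read scaling was -0.56. Of the related genes 40 were lower and 5 higher, and of all genes 5540 were lower and 1875 higher. The members' median was -0.30 without the low-value filter, where Fdps was also called lower (adjusted p = 0.012), and -0.26 with the 5 RPKM filter, which left 1800 of all genes lower. Leaving out 1 library gave 2 to 6 members higher, 2 to 5 transport, efflux and storage genes called and 9 to 21 related genes higher. It left 4 to 7 members past 1.5-fold, beside 531 to 721 of all genes lower and 483 to 604 higher by that test.

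Changes of sign concerned genes not called in the main comparison, of which Scap and Srebf1 were called lower with total-read scaling (adjusted p = 0.043 and 0.036). With total-read scaling the log2 fold changes were -0.16 for Mvk, -0.063 for Pmvk, -0.034 for Ebp, -0.15 for Scap, -0.16 for Srebf1 and -0.081 for Npc2; with upper-quartile scaling they were -0.0033 for Mvk and -0.00032 for Srebf1. Leaving out 1 library gave -0.044 to 0.082 for Mvk and -0.086 to 0.037 for Insig2. The cause was not tested.

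Whether the replicate numbers pair the libraries was not settled. Same-numbered libraries deviated together with r = 0.303, -0.06 and 0.307, while labelled-positive replicate 2 correlated best with labelled-negative replicate 3 (0.265). With so few libraries and no reference for r, pairing cannot be told from its absence. With the replicate block 18 members were lower and 3 higher, and 3315 of all genes were lower and 3738 higher. Idi1, Fdps and Abcg1, with 31 to 161 reads per library, are limited most by depth.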
